A study of Zea mays with 137 samples.

Results

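The gene described here was sat4 (serine acetyltransferase4), listed as Zm00004b000264, 1 gene of the 41448 in each expression table of a study of maize plants in which the copy number of 2 chromosome arms was changed at once. It was chosen by its identifier, because the study used it as 1 of 10 genes for droplet digital PCR, and not by its level in these data. It lay on chromosome 1 from 8007699 to 8022747 in the W22 coordinates of the files, near the tip of the short arm (1S), and no other listed gene overlapped it. Which exons and untranslated regions this interval holds was not analysed here. Serine acetyltransferase joins the acetyl group of acetyl-CoA to serine and so makes O-acetylserine, the carbon skeleton onto which plants load reduced sulfur to form cysteine. In plants the enzyme binds O-acetylserine (thiol)lyase, the next enzyme of the path, in the cysteine synthase complex, and the cysteine formed from O-acetylserine feeds methionine, glutathione and proteins. Which of the plant cell's serine acetyltransferases sat4 encodes, and in which compartment it works, was not looked up here.

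Leaf RNA of 45-d-old W22 plants was sequenced after rRNA depletion, with 108 aneuploid plants in 33 combinations and 29 diploid plants in 9 groups, 1 diploid group for each pair of arms. The extra or missing arms came from translocations between the supernumerary B chromosome and an A chromosome arm (TB-1Sb and TB-9Lc for the arms of the pair 1S+9L, and TB-9Sd, TB-6Lc, TB-5Lb, TB-5Sc, TB-4Lb, TB-3La and TB-1La for the others). Of the pairs that leave 1S at 2 copies, 6L occurred with 9S, 5L and 4L, 5L also with 4L and 3L, 3L with 4L and 1L, and 1L with 5S. The combinations were 9 double trisomies, with 3 copies of both arms, 6 double monosomies, with 1 copy of both, 15 with a trisomy of one arm and a monosomy of the other, and 3 in which one arm was trisomic and the other tetrasomic. A combination held 1 to 5 plants and a diploid group 2 to 4. Diploids segregated from the same crosses. The study's plant list, however, names all controls of 6L+9S and of 1L+3L euploid carriers of a translocation, and likewise 1 plant among the 5L+6L controls. All groups shared the W22 background and the greenhouse, and each tetrasomic combination was a single plant. The same list differs from the labels for 1 of the 4 plants labelled monosomy 1S+trisomy 9L, which it gives as trisomy 1S+monosomy 9L and which the study's tissue list does not name. The tissue list notes that the leaf of both trisomy 1S+monosomy 9L plants was taken with the mid-rib, as it does for some plants of other groups. Which plants entered a mean is not given in the sources used here.

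Each value was the authors' mean of a group in FPKM (fragments mapped to a gene, scaled by transcript length and library size), with no value per plant, so none is given here with an SD or a test across plants. The authors' own test columns were not used. The tables give no depth, and the study's methods state only an average over all samples, so the depth behind a single mean is unknown. The only yardstick was therefore the spread of sat4 among the 9 diploid means, which lies between separately made tables. Most ratios below compare groups of the same table and carry the error of both means. A value set against that SD is thus described by its size and is not tested. FPKM counts a transcript relative to all others, so fewer cells that express sat4 and less sat4 RNA per cell cannot be told apart. By the study's estimates, transcriptome size, the amount of mRNA per genome, changed in most combinations. The ratios below are relative and were not corrected for such changes. The group sums of FPKM ran from 570672 to 654278. The leaf marker Zm00004b018833, the photosystem II reaction centre W protein, was present in every group, at 115 to 1465 FPKM.

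sat4 was a well-expressed leaf gene in every group, between 17.2 and 97.9 FPKM, which placed it between the 64.9th and the 94.8th percentile of the genes with at least 1 FPKM in the same group. In the 9 diploid groups the lowest mean was 24.8 FPKM (3L+5L), the median 41.6 FPKM (1S+9L) and the highest 46.8 FPKM (1L+5S). The mean over the 9 groups was 38.2 FPKM ± 8.30 (SD, n = 9 diploid groups), and the highest was 1.88 times the lowest. On the log2 scale the SD was 0.34, a factor of 1.27, against a median SD of 0.28 over the 14944 genes of chromosomes 1 to 10 that had at least 1 FPKM in all 42 groups. sat4 was at the 63.2nd percentile of those SDs, so its diploid level varied somewhat more than that of the middle gene. The 9 tables were made separately, and the growth, sampling and table of a pair cannot be told apart.

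**Figure D1:**
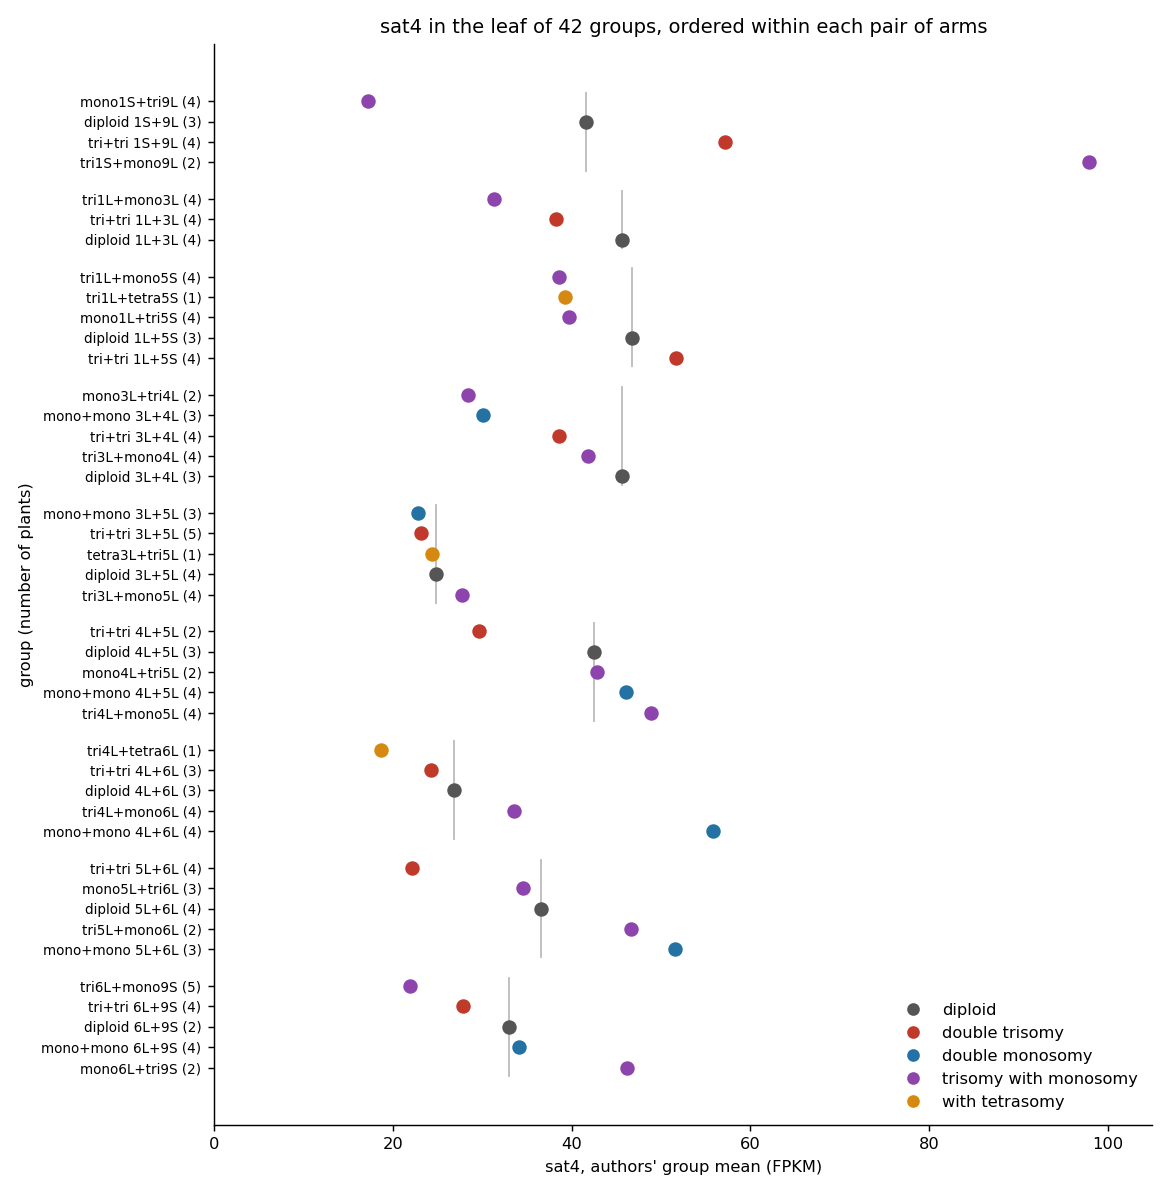
sat4 in the 42 groups, as the authors' group mean in FPKM (x axis), ordered by level within each pair of arms; colour gives the kind of group, the number of plants is in brackets and the grey line marks the diploid of the pair. The 3 combinations that vary 1S, at the top, hold both the lowest (17.2 FPKM) and the highest (97.9 FPKM) of all levels.

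Ordered by level, 40 of the 41 steps from a group to the next higher one were under the factor of 1.27. The exception was the step of 1.71-fold from double trisomy 1S+9L to trisomy 1S+monosomy 9L at the top. Sorting 42 values makes most such steps small whatever the groups do, so the small steps do not show that groups were alike. Within the range of the diploid groups lay 28 of the 42 means, the 9 diploids included, with 8 below it and 6 above it.

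The first question was how sat4 followed the dose of its own arm. With 1 copy of 1S and 3 copies of 9L its level was 17.2 FPKM, with 2 copies of each arm 41.6 FPKM, with 3 copies of each 57.1 FPKM, and with 3 copies of 1S and 1 of 9L 97.9 FPKM. The order of the levels was that of the 1S copy number, and the 2 groups with 3 copies of 1S were themselves far apart. The comparison that held 9L at 3 copies set 57.1 FPKM against 17.2 FPKM, a ratio of 3.33 for a 3-fold difference in 1S copies. The 1322 expressed 1S genes had a median ratio of 2.76 in the same comparison, with quartiles of 2.15 and 3.69, and sat4 stood at their 68.2nd percentile. Genes outside 1S and 9L, called trans genes below, had a median of 0.92, and divided by it the ratio of sat4 was 3.61.

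Against the diploid, monosomy 1S+trisomy 9L had a sat4 ratio of 0.41, below the 0.5 of a full gene-dosage effect by 0.28 on the log2 scale. The 1S genes had a median of 0.50 and sat4 was at their 30.7th percentile. The ratio was past the 1.5-fold limit used throughout (a ratio of at least 1.5 or at most 1/1.5), as were, in the same direction, 22.2% of the 20655 genes compared. The plant whose karyotype differs between the sources could not be left out of this mean, and its part in the value was not tested. The study estimates a larger transcriptome in this combination than in the diploid, from droplet digital PCR of 10 genes that include sat4. The ratio of 0.41 is relative to all transcripts, so how sat4 RNA per genome compared with the copy-number value of 0.5 was not tested here.

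In double trisomy 1S+9L, sat4 had a ratio of 1.37, which was within the fold limit and close to the 1S median of 1.39, at the 48.4th percentile of 1373 genes. Here the trans median was 0.93, so that sat4 and the median 1S gene were 1.48 and 1.49 times the trans median, next to the 1.5 of the copy number. The study reports a changed transcriptome size for this double trisomy too, and these values are relative. In trisomy 1S+monosomy 9L, by contrast, the ratio of sat4 was 2.35, past the limit together with 15.4% of 20563 genes, while the 1S median was 1.24 and the trans median 0.82. sat4 was at the 85.8th percentile of the 1S genes there, and 0.65 above the copy-number value of 1.5 on the log2 scale. Both groups carried 3 copies of 1S, and their ratio, double trisomy over trisomy 1S+monosomy 9L, was 0.58 for sat4 (13.2nd percentile of 1383 1S genes, whose median was 1.12). That difference of 0.78 on the log2 scale was larger than the 0.34 SD of the diploid means. The copies of 9L, the 2 plants and the mid-rib in their leaf cannot be told apart in this comparison, and the leaf marker Zm00004b018833 was at 1026 FPKM in trisomy 1S+monosomy 9L against 591 FPKM in the double trisomy and 822 FPKM in the diploid.

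**Figure D2:**
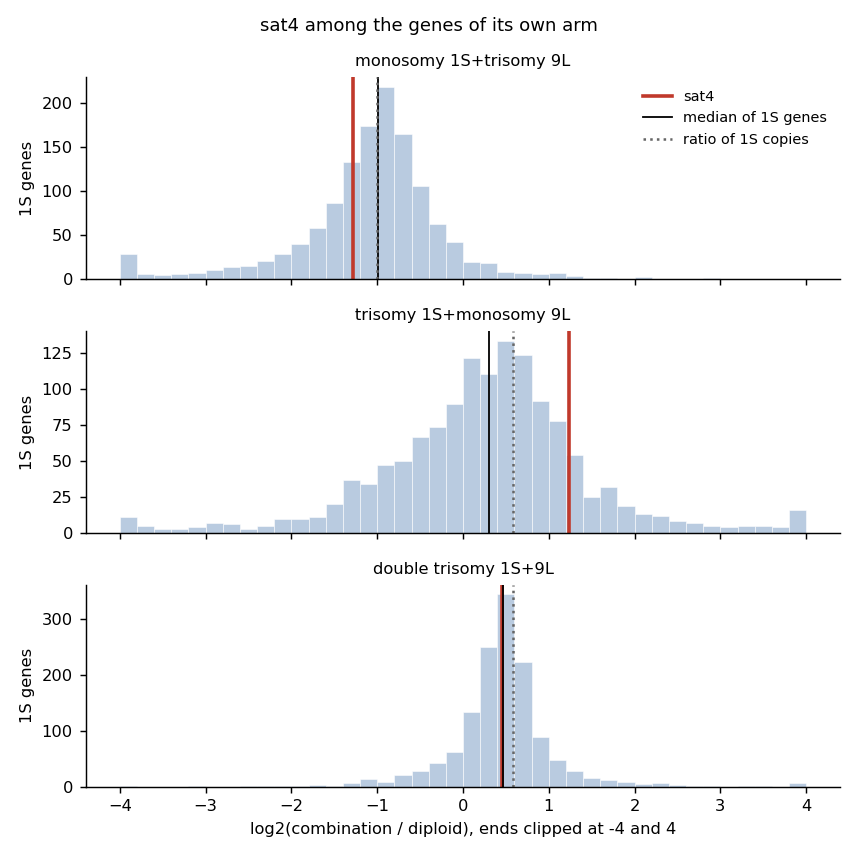
Number of 1S genes (y axis) by log2 ratio of the combination to the diploid (x axis) in the 3 combinations of 1S and 9L, for genes with a sum of at least 1 FPKM and a value above 0. The red line (sat4) lies 0.28 below the copy-number value (dotted) in monosomy 1S+trisomy 9L, beside the 1S median (black) in the double trisomy, and far to the right of it in trisomy 1S+monosomy 9L.

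The genes around sat4 gave the local picture. The nearest gene with at least 1 FPKM in the diploid on the side of the tip, Zm00004b000263 (chromosome 1, 7919458 to 7923947), had ratios of 0.51 in monosomy 1S+trisomy 9L, 1.84 in trisomy 1S+monosomy 9L and 1.47 in the double trisomy. The nearest on the side of the centromere, Zm00004b000270 (chromosome 1, 8191664 to 8193028), had 0.46, 0.77 and 1.08. The gene on the tip side thus had its 3 ratios in the same order as sat4, and the one on the other side was highest in the double trisomy. Of the 20 expressed neighbours, 10 on each side, 19 had a lower ratio than sat4 in trisomy 1S+monosomy 9L, where their median was 0.72. In the double trisomy 10 of the 20 were lower and their median was 1.37, and in monosomy 1S+trisomy 9L 12 were lower and their median was 0.32. The high ratio of sat4 with 1 copy of 9L was therefore not that of the middle neighbour. It was not unique in the stretch, where Zm00004b000263 was at 1.84 and the highest neighbour at 2.60.

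The other 30 combinations left 1S at 2 copies, and there sat4 was a trans gene. Its ratio to the diploid ran from 0.61 in double trisomy 5L+6L to 2.08 in double monosomy 4L+6L, with a median of 0.92, and was below 1 in 19 and above 1 in 11 of the 30. It differed from 1 by more than 1 SD of the diploid means in 11 of them. That SD is one of single means and a ratio carries the error of 2, so the count describes size and was not tested. The SD of its log2 ratio over the 30 was 0.40, against a median of 0.38 for the 14944 genes, each over the combinations that did not vary its own arm, which put sat4 at the 53.7th percentile. As a trans gene sat4 thus varied about as much as the middle leaf gene.

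The 1.5-fold limit was passed in 5 of the 30 combinations, 4 of them with less sat4. In double monosomy 3L+4L the level was 30.1 FPKM against 45.6 FPKM in the diploid (ratio 0.66), and 20.0% of genes had a ratio at or under the lower limit. In monosomy 3L+trisomy 4L it was 28.4 FPKM against the same diploid (ratio 0.62), with 22.8% of genes at or under the limit, and 1 of its 2 plants was listed with the mid-rib, whose part in the value was not tested. Both of these groups had 1 copy of 3L, while trisomy 3L+monosomy 4L (41.8 FPKM) and double trisomy 3L+4L (38.6 FPKM) were within the limit. The other combinations with 1 copy of 3L were also within it, at ratios of 0.69 (trisomy 1L+monosomy 3L) and 0.92 (double monosomy 3L+5L). In double trisomy 5L+6L it was 22.2 FPKM against 36.5 FPKM (ratio 0.61), where 8.73% of genes were at or under the limit and sat4 was at the 6.62nd percentile of the trans genes. In trisomy 6L+monosomy 9S it was 21.9 FPKM against 33.0 FPKM (ratio 0.66), with 11.8% of genes at or under the limit. Both of these had 3 copies of 6L, while the other combinations with 3 copies of 6L were within the limit, at ratios of 0.84 (double trisomy 6L+9S), 0.90 (double trisomy 4L+6L) and 0.94 (monosomy 5L+trisomy 6L).

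The combination with more sat4 was double monosomy 4L+6L, at 55.8 FPKM against 26.9 FPKM in its diploid (ratio 2.08), the highest level of the 30, where 17.6% of genes had a ratio of at least 1.5 and sat4 was at the 93.0th percentile of the trans genes. That diploid was the second lowest of the 9. Set against the median of the 9 diploid means in place of its own diploid, a comparison chosen after seeing the data and across separately made tables, the same level was not past the limit. By that measure 7 of the 30 were past it, all with less sat4, and only 2 of these, double trisomy 5L+6L and trisomy 6L+monosomy 9S, were among the 5 above. The choice of control thus decided which trans combinations stood out, whereas monosomy 1S+trisomy 9L and trisomy 1S+monosomy 9L were past the limit by both measures.

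**Figure D3:**
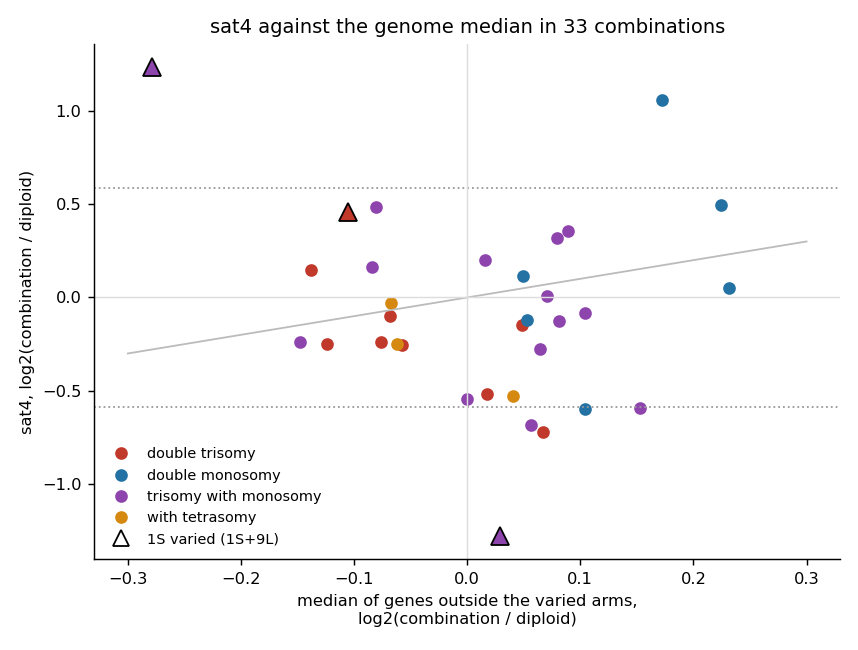
log2 ratio of sat4 to the diploid (y axis) against the log2 median ratio of the trans genes of the same combination (x axis) for 33 combinations; circles leave 1S at 2 copies, triangles vary it, the diagonal marks equal values and the dotted lines mark 1.5-fold. Of the 30 circles 5 lie outside the 1.5-fold lines, and of the 3 triangles 2.

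The trans median itself ranged only from 0.90 to 1.17 in these 30 combinations. sat4 and the trans median were on the same side of 1 in 16 of 30, and sat4 was below the trans median in 20 of 30. Pearson's r between their log2 ratios was 0.15 and Spearman's rho 0.07 over the 30 points, of which those of 1 pair of arms share their diploid.

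Whole kinds of combination were then tested, with pairs of arms as the units. An exact permutation test that flips signs, two-sided, was used, and the p-values of the 4 tests were adjusted together by Benjamini-Hochberg. Double trisomy had a mean log2 ratio of -0.26 ± 0.26 (SD, n = 8 pairs), a factor of 0.83, with 7 of 8 below 0, an exact p of 0.0234 and an adjusted p of 0.0938. It was the nearest to the threshold of 0.05 and did not pass it after adjustment. Its ratios ran from 0.61 (5L+6L) and 0.70 (4L+5L) to 1.11 (1L+5S), the 1 double trisomy with more sat4 than its diploid. Double monosomy had a mean of 0.17 ± 0.56 (SD, n = 6 pairs), with 4 of 6 above 0 and an exact p of 0.562, and its sign rested on 4L+6L, without which the mean was -0.01. Divided by the trans median of each combination, the double monosomy mean was 0.03. Trisomy with monosomy, 13 combinations averaged to 8 pairs, had a mean of -0.07 ± 0.30 (SD, n = 8 pairs), 4 on either side of 0, with an exact p of 0.555.

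Double monosomy set directly against double trisomy of the same arms, a comparison that needs no diploid, had a mean log2 ratio of 0.50 ± 0.65 (SD, n = 6 pairs), a factor of 1.41, with an exact p of 0.188 and an adjusted p of 0.375. The 6 pairs were split by arm only after their values were seen, and 4L and 5L occur on both sides of the split. Those with 6L or with 4L+5L were higher in the double monosomy, with ratios of 2.33 for 5L+6L, 2.30 for 4L+6L, 1.55 for 4L+5L and 1.23 for 6L+9S. The 2 pairs with 3L were not, at 0.99 for 3L+5L and 0.78 for 3L+4L. The ratios of 6L+9S and 3L+5L differed from 1 by less than 1 SD of the diploid means. With 6 pairs this test can give no p under 0.0312.

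Groups of the same pair that differed in the copies of only 1 arm were then compared arm by arm, again without the diploid. These ratios draw on many of the same group means as the comparison above, so they divide its values by arm and are no separate support. For 6L sat4 was lower with 3 copies than with 1 in all 5 comparisons, with a median ratio of 0.64. With 4L at 3 copies it was 24.2 FPKM against 33.5 FPKM. With 5L at 1 copy it was 34.5 FPKM against 51.6 FPKM, and with 5L at 3 copies 22.2 FPKM against 46.7 FPKM. With 9S at 1 copy it was 21.9 FPKM against 34.1 FPKM, and with 9S at 3 copies 27.8 FPKM against 46.2 FPKM. Each ratio, from 0.47 to 0.72, was further from 1 than 1 SD of the diploid means. Of the 15258 genes outside every arm concerned, 20.7% were also lower in all 5, and the median ratio of sat4 was at their 9.98th percentile, so the uniform direction was common among trans genes and its size less so. The 5 comparisons used different groups, and 5 values allow no two-sided sign-flip p under 0.0625.

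**Figure D4:**
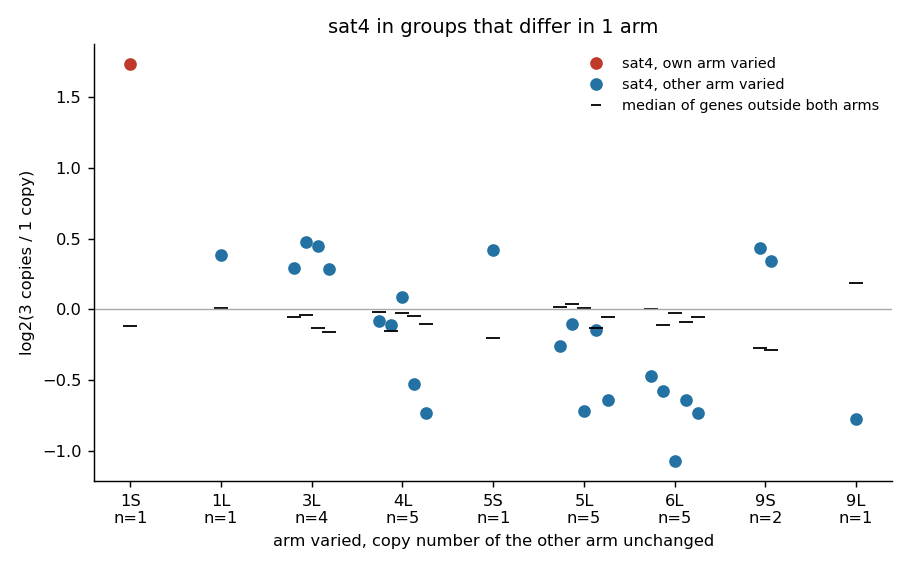
log2 ratio of 3 copies to 1 copy of an arm at an unchanged copy number of the other (y axis), for sat4 (circles) and for the median of the genes outside both arms (bars), by the arm varied (x axis). All 5 values of 6L and of 5L lie below 0, all 4 of 3L above it, and the single value of 1S is at 1.73.

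The tetrasomic plant added a step to the 6L comparison. With 4L at 3 copies sat4 was at 33.5 FPKM with 1 copy of 6L, 24.2 FPKM with 3 and 18.6 FPKM with 4, the last from 1 plant, so that each step up in 6L copies had a lower level. The other tetrasomies showed no such order. With 1L at 3 copies the levels were 38.6, 51.7 and 39.3 FPKM for 1, 3 and 4 copies of 5S, and with 5L at 3 copies they were 23.2 and 24.4 FPKM for 3 and 4 copies of 3L.

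For 5L sat4 was also lower with 3 copies in all 5 comparisons, with a median ratio of 0.83 and a range of 0.61 to 0.93, as were 14.0% of 14539 genes. Only with 5L varied against 3 copies of 4L (29.7 FPKM against 48.8 FPKM) and against 3 copies of 6L (22.2 FPKM against 34.5 FPKM) did the difference exceed 1 SD of the diploid means. Both 6L and 5L comparisons drew on the groups of the pair 5L+6L. For 4L the ratio was below 1 in 4 of 5, with a median of 0.92, and in 3 of 5 once the trans median was divided out. The 4L difference exceeded 1 SD of the diploid means at 1 copy of 6L (33.5 FPKM against 55.8 FPKM, ratio 0.60) and at 3 copies of 5L (29.7 FPKM against 42.8 FPKM, ratio 0.69).

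For 3L the direction was the opposite, with more sat4 at 3 copies in all 4 comparisons. Its level was 38.3 FPKM with 3 copies against 31.3 FPKM with 1 at 3 copies of 1L, 41.8 FPKM against 30.1 FPKM at 1 copy of 4L, 38.6 FPKM against 28.4 FPKM at 3 copies of 4L and 27.8 FPKM against 22.8 FPKM at 1 copy of 5L. The median ratio was 1.29, and the 2 comparisons within 3L+4L, at 1.39 and 1.36, were larger than 1 SD of the diploid means. Only 9.86% of 14340 genes were higher in all 4, fewer than were lower in all 4 (23.8%), and the middle trans gene was itself lower with 3 copies. After division by the trans median the share higher in all 4 was 16.3%, and sat4 was at the 84.1st percentile. The leaf marker Zm00004b018833 lies on 3L and so says nothing here about leaf makeup.

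The remaining arms had 1 or 2 comparisons. With 3 copies of 9S in place of 1 the ratio of sat4 was 1.35 at 1 copy of 6L and 1.27 at 3 copies, with 3 copies of 1L it was 1.30 and with 3 copies of 5S 1.34. With 9L, against 3 copies of 1S, it was 0.58, the comparison described above. The 6L and 9S comparisons within 6L+9S thus had opposite signs, and the level was highest with 1 copy of 6L and 3 of 9S (46.2 FPKM), lowest with 3 and 1 (21.9 FPKM), and between these in double monosomy (34.1 FPKM) and double trisomy (27.8 FPKM).

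The droplet digital PCR list held 9 genes beside sat4. Over the combinations that did not vary a gene's own arm, the SD of the log2 ratio ran from 0.18 for ZmMed12b (Zm00004b034591), a subunit of the Mediator complex that links regulators to RNA polymerase II, to 0.72 for the transcription factor gene glk8 (Zm00004b011191). sat4, at 0.40, was the fourth most variable of the 10. It came next to the photosystem II W gene (0.39) and below the peroxidase gene px5 (Zm00004b030088, 0.61) and a phosphatidylinositol-3-phosphate 5-kinase gene (Zm00004b003707, 0.58). The number of combinations past 1.5-fold was 5 of 30 for sat4, against 12 of 29 for glk8, 11 of 27 for the kinase gene, 7 of 21 for px5 and 7 of 23 for photosystem II W. The cysteine protease gene ccp1 (Zm00004b013771) had 1 of 21. For ZmMed12b, an annexin gene (Zm00004b008969), a gene of the SNF7 family of membrane-remodelling proteins (Zm00004b032873) and an MSI1 family WD repeat gene (Zm00004b004532) the count was 0. sat4 thus stood between the steady and the changeable members of this list.

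**Figure D5:**
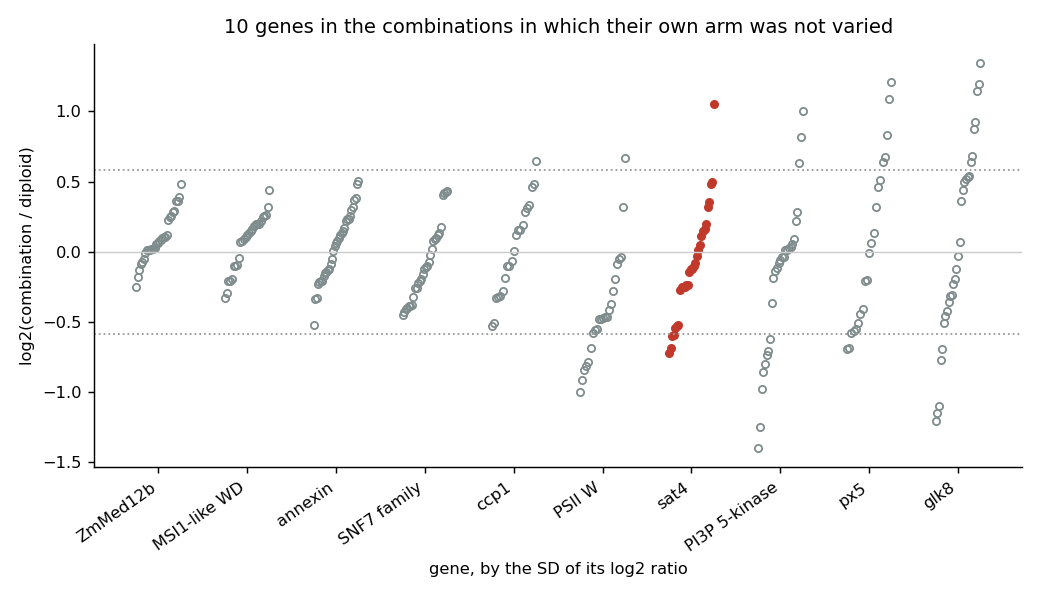
log2 ratio to the diploid (y axis) of the 10 genes of the droplet digital PCR list in the combinations that did not vary their own arm, each point 1 combination, genes ordered by SD (x axis) and sat4 in red; dotted lines mark 1.5-fold. The points of sat4 run from 0.61-fold to 2.08-fold, with 5 of 30 outside the lines.

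The genes whose pattern was most like that of sat4 were sought by Pearson's r of the log2 ratios over the 33 combinations, among 14943 genes with at least 1 FPKM in every group. The 5 highest were Zm00004b000149 (r = 0.84), Zm00004b001060 (0.81), Zm00004b001422 (0.80), Zm00004b001709 (0.79) and Zm00004b001837 (0.78). All 5 lie on 1S, against 6.69% of the genes ranked, and combinations of 1 pair share their diploid. Over the 30 combinations that left 1S alone none of the 5 stayed among the 5 highest, where the highest r was 0.79. In the order given, their r there was 0.70, 0.70, 0.64, 0.63 and 0.60. Their ranks were 19, 18, 48, 62 and 110 of the 14943 genes. The 5 genes were chosen by r over the 33 combinations, which include these 30, so the choice itself favours a high r there. These ranks are therefore no separate check of the likeness. In a longer list of highest-ranked genes, equally long both times, 87% lay on 1S over the 33 combinations and 10% over the 30. What part of the likeness goes with the dose of 1S was not tested. Zm00004b001060 (chromosome 1, 39240322 to 39245377) was the gene most like sat4 by log2 level over the 42 groups (r = 0.81), and its ratios were 0.37, 1.62 and 1.67 in monosomy 1S+trisomy 9L, trisomy 1S+monosomy 9L and double trisomy 1S+9L. The files give no names for these 5 genes.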

How the data were processed

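Reads of rRNA-depleted leaf libraries were, per the labels and the methods, trimmed with fastp, cleared of organelle reads and aligned by STAR against W22 and B chromosome sequence. The authors then made the deposited FPKM values with Cuffdiff, as 1 mean per group in 1 table per pair of arms. Versions, the assembly version and the library scaling are not given in the sources used here. The tables also hold the authors' fold changes, test statistics, p-values and q-values, which were not used. The table columns belonged to 42 groups, and 0 columns of other samples were left out.

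From the means, ratios to the diploid of the same table were computed in Python 3.11.15 with numpy 2.4.6, pandas 2.3.3 and scipy 1.17.1, and drawn with matplotlib 3.10.9. Genes of chromosomes 1 to 10 with a sum of both means of at least 1 FPKM entered medians and percentiles. The end of each varied arm was set at the change point of the log2 ratios (131514460 on chromosome 1 for 1S, with 2464 listed genes). Code was tested on simulated data. Named genes were sat4, the other 9 genes of the droplet digital PCR list, the nearest gene of at least 1 FPKM in the 1S+9L diploid on either side and the 5 genes most like sat4. Gene, lists and tests were chosen with earlier results of these data known. Alternatives were pseudocounts, scaling by the trans median or the FPKM sum, other folds and filters, and each pair of arms left out in turn. With the authors' means alone, p-values measure the spread between pairs of arms, which have arms in common, not between plants. Plants were grouped by the titles in the labels. No sequence of sat4 was analysed here.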

Additional observations from a re-analysis of the deposited data

Results flagged for a closer look

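The response of sat4 to 3 against 1 copies had opposite signs for different arms. Of the arms with at least 4 comparisons, 3L, 5L and 6L had every one on the same side, while 4L had 4 below 0 and 1 above. For 3L the median log2 ratio was 0.37, with 4 of 4 comparisons above 0. For 5L it was -0.26 and for 6L -0.64, each with 5 of 5 below 0. The difference between arms was not tested. In the pair 3L+5L the comparisons of both arms share the trisomy 3L+monosomy 5L group. Among 9 sets of 4 to 9 values, the diploid means included, 0 of the 18 highest or lowest values lay beyond Dixon's 95% limit.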

How the results depend on the processing

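No paired analysis was possible because the files hold 1 mean per group, so that replicate numbers of plants carry no values. Of 165 recomputed values 159 stayed within the limits set for them: for the tests the sign of the mean and the side of the threshold, whatever the size, for single ratios a move of under 1 SD of the diploid means, for percentiles 5 points and for counts a factor of 1.5. The mean log2 ratio over pairs of arms, each pair left out in turn, ran from -0.32 to -0.19 in double trisomy (exact p from 0.0156 to 0.0469, adjusted p from 0.0625 to 0.188), from -0.01 to 0.32 in double monosomy, from -0.12 to 0.00 (0.0010 without 1L+3L, a change of sign) in trisomy with monosomy, and from 0.35 to 0.67 in double monosomy against double trisomy. The change of sign in double monosomy came without 4L+6L (-0.012). A test over 6 pairs keeps 5 when 1 is left out, and 5 values allow no exact p under 0.0625. The 2 tests over 6 pairs thus could not cross the threshold in this way. Divided by the trans median, the mean was -0.22 in double trisomy (exact p = 0.0859), 0.03 in double monosomy (from 0.17), -0.09 in trisomy with monosomy (from -0.07) and 0.34 in double monosomy against double trisomy (from 0.50). Divided by the FPKM sum, the mean in trisomy with monosomy was -0.02. Without the 2 pairs with translocation controls the double trisomy mean was -0.26 (exact p = 0.0938). The number of combinations past the fold was 7 of 33 at 1.5-fold, 16 at 1.2-fold and 3 at 2-fold, as the limits themselves set it, 7 after division by the trans median and 9 against the median diploid. None of the 99 recomputed single ratios, which are most of the 165 values, moved by as much as 1 SD of the diploid means. The largest move was 0.28 on the log2 scale, against the SD of 0.34. With trans medians and FPKM sums this even and a pseudocount this small beside sat4, none could reach that limit, so staying within it is no sign of robustness. In 3 combinations near a ratio of 1, 4 of the 99 changed sign on the log2 scale. By these tetrasomy 3L+trisomy 5L became 0.04 and 0.03 (from -0.03), monosomy 4L+trisomy 5L -0.06 (from 0.01) and double monosomy 6L+9S -0.18 (from 0.05). Of the 5 genes most like sat4, 5 stayed among the 5 highest after division by the trans median, 0 without the 1S combinations (ranks 18 to 110) and 2 by level over the 42 groups. With group means alone and the authors' tests not used, no difference between 2 groups was set against the spread of its own plants.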
